A study of Homo sapiens with 4 samples.

Results

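A set of 10 adhesion genes other than the integrin chain ITGB7 was followed in EJM myeloma cells during blockade of NF-κB: the integrin chains ITGA4, ITGA6, ITGB1, ITGB2 and ITGAL, the immunoglobulin-superfamily ligands ICAM1 and VCAM1, the hyaluronan receptor CD44, the platelet-endothelial adhesion molecule PECAM1 and the galectin LGALS1. They were chosen by gene symbol in the probe annotation, which gave 10 genes and 38 probes out of 4604 named genes and 15246 probes. EJM is an established human line of multiple myeloma, a cancer of plasma cells, the antibody-secreting cells of the bone marrow. Both channels of every array held EJM cells carrying an IκBα super-repressor under tetracycline control. The Cy5 channel held cells given 20 µg/ml doxycycline at 37 °C to switch the super-repressor on, for 1, 2, 3 or 4 days (1 array per day), and the Cy3 channel held uninduced cells of the same line. Values are log2 of Cy5 over Cy3, so a value above 0 means more signal in induced cells. The direction follows the dye labels and base 2 is inferred from the values: the deposited table states neither, and the opposite direction would turn every sign. No array compared doxycycline-treated cells lacking the super-repressor, and no source used here says whether the line is a single clone. A ratio from a whole culture cannot tell fewer cells with a transcript from less transcript per cell.

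Integrins are pairs of an α and a β chain that tie cells to matrix and to other cells. In plasma cells α4 (ITGA4) pairs with β1 (ITGB1) or β7 and binds VCAM1 and fibronectin, αL (ITGAL) pairs with β2 (ITGB2) and binds ICAM1, and α6 (ITGA6) pairs with β1 or β4 and binds laminin. NF-κB is kept in the cytoplasm by IκBα until a signal destroys the inhibitor, and the super-repressor resists that destruction. ICAM1 and VCAM1 are textbook NF-κB target genes in endothelium, where inflammatory cytokines induce them through κB elements near the start of transcription.

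The upstream regions of the 2 ligand genes are shown beside that of CD44, a member with values above 0 on each day. The RefSeq promoter table (GRCh38.p14) held windows for 6 of the 10 members. Each stretch below is the 250 bases before the RefSeq start of the gene, on the plus strand, with capitals marking matches to GGNNNTTCC or to the κB consensus on either strand.
ICAM1: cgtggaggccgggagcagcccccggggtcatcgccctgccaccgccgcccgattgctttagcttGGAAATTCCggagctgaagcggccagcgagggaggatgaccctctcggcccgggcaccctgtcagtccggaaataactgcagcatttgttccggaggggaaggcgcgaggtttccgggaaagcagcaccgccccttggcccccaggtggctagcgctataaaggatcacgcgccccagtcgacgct
VCAM1: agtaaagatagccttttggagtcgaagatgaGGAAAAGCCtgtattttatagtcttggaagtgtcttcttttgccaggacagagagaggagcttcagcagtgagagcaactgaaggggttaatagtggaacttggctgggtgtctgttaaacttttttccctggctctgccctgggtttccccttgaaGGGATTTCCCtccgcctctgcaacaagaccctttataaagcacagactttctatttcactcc
CD44: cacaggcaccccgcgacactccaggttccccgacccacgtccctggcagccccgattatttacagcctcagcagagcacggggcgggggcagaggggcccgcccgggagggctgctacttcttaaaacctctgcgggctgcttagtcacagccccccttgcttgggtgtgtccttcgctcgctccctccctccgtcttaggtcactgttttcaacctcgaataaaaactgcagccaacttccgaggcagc
The ICAM1 stretch lies at chr19:10270870-10271119, the VCAM1 stretch at chr1:100719492-100719741 and the CD44 stretch at chr11:35138921-35139170. The ICAM1 match is GGAAATTCC, which begins 186 bases before the start and matches on both strands. In VCAM1 the match to both motifs is GGGATTTCCC, which begins 62 bases before the start. The other VCAM1 match, GGAAAAGCC on the minus strand and 219 bases before the start, fits GGNNNTTCC only. The motif GGNNNTTCC was found in 20.1% of all 35116 windows of 300 bases in the table and in 2 of the 8 windows of the members, those of ICAM1 and VCAM1. The κB consensus was found in 11.3% of all windows and in 2 of the members' 8, those of VCAM1 and ITGB1 (GGGAGGCCCC, ending at the base before the start). The motifs overlap in VCAM1, their letters were chosen with these sequences known, and a match does not show that a site is bound.

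Of the 38 member probes, 5 had no value on any array, 7 had 1 or 2 values, 8 had 3 and 18 had all 4. Over all probes 74.7%, 67.7%, 88.8% and 91.0% had a value on days 1 to 4, while for the member probes the shares were 71.1%, 52.6%, 81.6% and 81.6%. The SD of the log2 ratio over all probes was 0.517 and 0.569 on days 1 and 2, against 0.345 and 0.380 on days 3 and 4. Array medians lay between -0.068 and 0.004. The correlation between arrays over shared probes ran from 0.020 (days 1 and 4) to 0.566 (days 3 and 4), so the later pair were the more alike. TNFAIP3, the NF-κB feedback gene that encodes A20, had values of -1.07, -1.52, -1.58 and -1.70 on days 1 to 4 (limma adjusted p = 0.0178). It was the 1 called of 4 measured NF-κB reference genes, against 0.337% of all features. They were chosen with earlier results of these arrays known, so their values are no independent check of the blockade. Under equal spread of the arrays, with days 1 and 2 alone, or with the day 2, 3 or 4 array left out, no NF-κB reference gene was called. With array weights 3 of the 4 were called, against 144 of 7713 features. With days 3 and 4 alone 3 of the 4 were called, against 6.58% of 8650 features. The best-covered probe of each gene gave 2 of the 4, against 22 features in all.

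Averaged over the 4 arrays, LGALS1, PECAM1, ITGA6 and CD44 had the highest means of the members and ICAM1 and VCAM1 the lowest, with ITGAL, ITGB2 and ITGA4 near 0. The mean log2 ratios in that order were 0.56, 0.52, 0.47 and 0.37, then -0.44 and -0.34, then 0.00, -0.06 and -0.11. No difference passed over all features: 0 of the 9 members with values on at least 3 arrays had a limma adjusted p under 0.05, against 26 of 7713 features (0.337%), and the smallest was 0.133 for LGALS1. At an unadjusted p under 0.05, 4 of 9 members were higher, against 6.47% of all features, and 1 of 9 was lower, against 6.0%. Among the 8 members measured on every array, 4 lay above 0 on all 4 arrays (11.7% of 6427 features did) and 2 lay below 0 on all 4 (13.4% of features). These genes were picked with earlier results of the same arrays known, so the counts describe them and are not an independent test. In the order of the means, the SD ranges of neighbours overlapped, other than those of CD44 (0.37 ± 0.025) and ITGAL (0.00 ± 0.17). The median of the 9 means was 0.001, against -0.03 for all features.

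**Figure D1:**
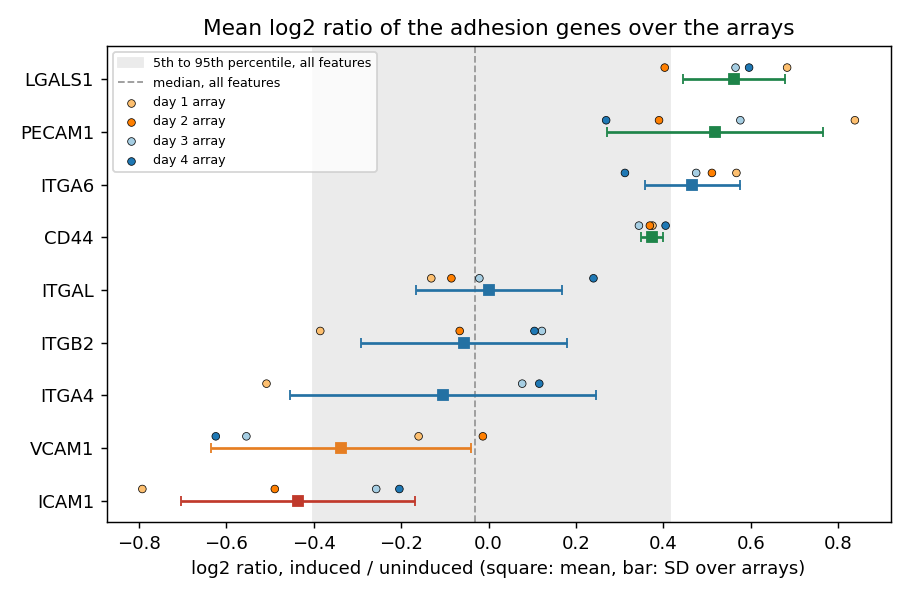
Mean log2 ratio (induced over uninduced) of the 9 adhesion genes with values on at least 3 arrays. Squares are means and bars the SD over the arrays, circles are the values of single days, the grey band spans the 5th to 95th percentile of the means of all 7713 features (-0.40 to 0.41) and the dashed line is their median. LGALS1, PECAM1 and ITGA6 lie above the band, ICAM1 lies below it, and the SD bars of neighbours in the order overlap, other than those of CD44 and ITGAL.

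ICAM1, the ligand of the αLβ2 integrin, gave gene averages of -0.79, -0.49, -0.26 and -0.20 on days 1, 2, 3 and 4. All 4 were below 0, and the lowest was day 1. The mean was -0.44 ± 0.27 (SD, 4 arrays), or 1.35-fold lower in induced cells, with a 95% interval of -0.76 to -0.11 and a limma adjusted p of 0.286. The approach to 0 over the days came with a change of probes, because days 1 and 2 rest on probe 27211_1 alone and days 3 and 4 on 4 probes. Probe 27211_1 by itself gave -0.79, -0.49, -0.68 and -0.68, with no approach to 0. Its mean was -0.66 ± 0.13, and when every probe was tested as a feature its limma adjusted p over 11669 probes was 0.0886. The other 3 probes had values on days 3 and 4 only, and they disagreed. Probe 16403_1 gave -0.44 and -0.68, probe 28750_1 gave -0.25 and 0.13, and probe 24268_1 gave 0.34 and 0.41. Probe 24268_1 thus lay above 0 on both of its arrays, against the sign of the gene average, and what it detects was not tested.

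VCAM1, the ligand of the α4 integrins, had gene averages of -0.16, -0.01, -0.55 and -0.62 on days 1 to 4, and no probe covered all days. The averages were close to 0 on days 1 and 2 and lower on days 3 and 4. Probe 15978_1 gave -0.24 on day 1, -0.55 on day 3 and -0.62 on day 4. Probe 35382_1 gave -0.075 and -0.013 on days 1 and 2 only, so the day 2 average rests on it alone, and probe 28545_1 had no value. The gene mean was -0.34 ± 0.30 (SD, 4 arrays; 95% interval -0.68 to 0.001), or 1.26-fold lower, with a limma adjusted p of 0.402. The mean of probe 15978_1 over its 3 arrays was -0.47 ± 0.20. With days 3 and 4 alone, where that probe is the only one, VCAM1 was called at a mean of -0.59 (limma adjusted p = 0.0253). With these days 2 of 10 members were called, VCAM1 and LGALS1, against 6.58% of 8650 features. Days 3 and 4 are the pair of arrays with the highest correlation.

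**Figure D2:**
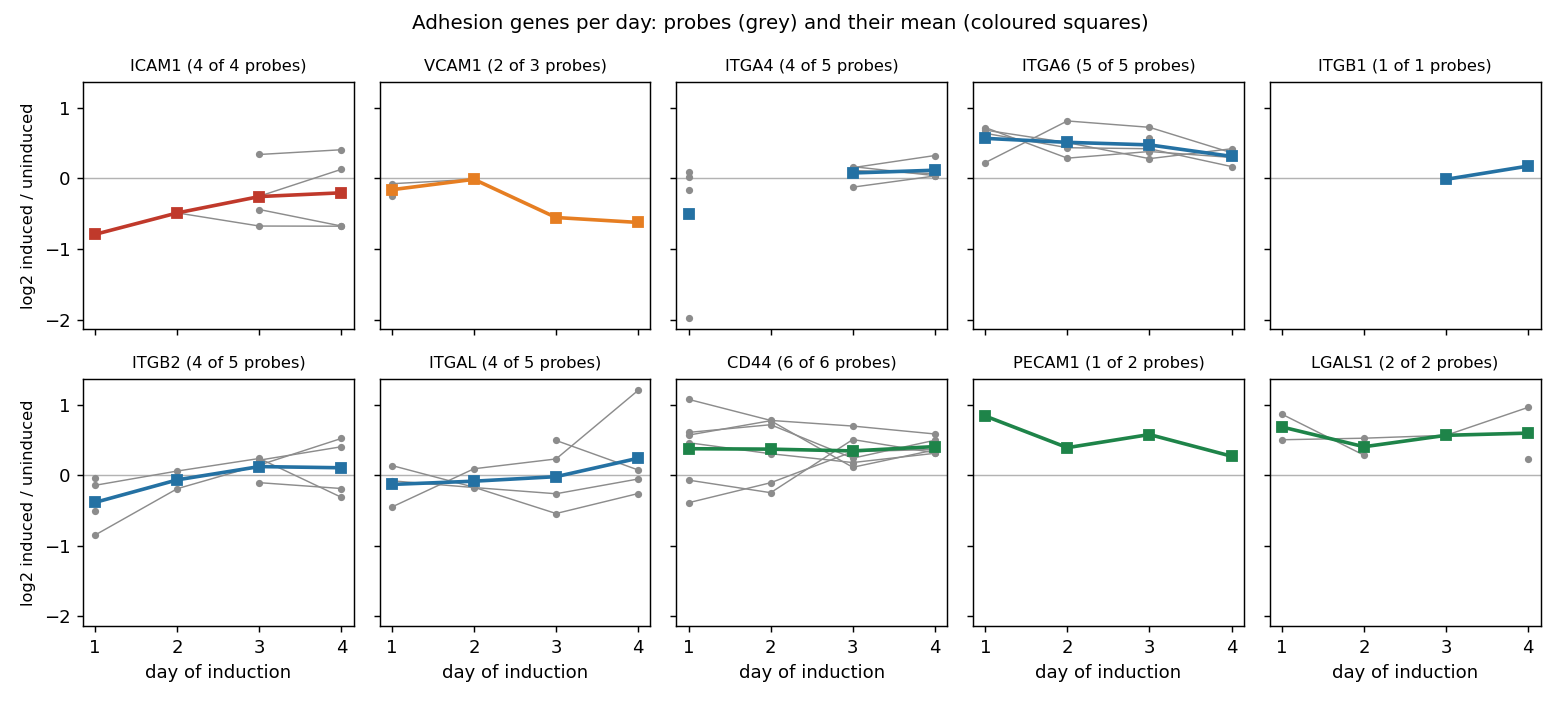
Log2 ratio (induced over uninduced) against day of induction for each of the 10 adhesion genes. Grey points and lines are single probes, coloured squares are their mean per array, and panel titles give the number of probes with any value out of all probes. The ICAM1 average goes from -0.79 to -0.20 as 3 more probes enter, the 6 CD44 probes spread around an average near 0.37, and 1 ITGA4 probe stands at -1.98 on day 1.

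Of the member integrin chains with values on at least 3 arrays, ITGA6 alone had a 95% interval that left out 0, and none was called. ITGA6, the α chain of laminin-binding integrins, had averages of 0.57, 0.51, 0.48 and 0.31 on days 1 to 4, above 0 on every array and lowest on day 4. Its mean was 0.47 ± 0.11 (SD, 4 arrays), or 1.38-fold higher, with a 95% interval of 0.20 to 0.73 and a limma adjusted p of 0.204. Among the member integrin chains, only ITGA6 had no probe value below 0. The means of the 4 probes with all values ran from 0.415 (28961_1) to 0.53 (26996_1), and each was above 0 on all 4 arrays. The fifth, 26402_1, had a single value, 0.57 on day 3.

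ITGAL, the α chain of the ICAM1-binding integrin of leukocytes, had averages of -0.13, -0.09, -0.02 and 0.24, so 3 arrays lay below 0 and day 4 above. The mean was 0.00 ± 0.17 (95% interval -0.28 to 0.28; limma adjusted p = 0.998). Its probes went different ways. Probe 30029_1 read -0.45, 0.09, 0.23 and 1.20 on days 1 to 4, probe 15875_1 read 0.14, -0.17, -0.54 and -0.26, and probe 29807_1 stayed between -0.26 and -0.05. Probe 28433_1 had 0.49 and 0.07 on days 3 and 4, and 24271_1 had no value. On day 4 the other 3 probes read -0.26, -0.05 and 0.07, so the average above 0 rests on 30029_1. The mean turned to -0.06 with the median of probes and to -0.08 without the day 4 array.

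ITGB2, the β chain that pairs with αL, had averages of -0.39, -0.07, 0.12 and 0.11, below 0 on days 1 and 2 and above 0 on days 3 and 4. The mean was -0.06 ± 0.24 (95% interval -0.36 to 0.25; limma adjusted p = 0.873), and it turned to 0.001 with arrays scaled to equal spread and to 0.054 without the day 1 array. Here too the day pattern belonged to some probes. Probe 26614_1 read -0.85, -0.19, 0.14 and 0.52 on days 1 to 4, and probe 24669_1 read -0.51, 0.21 and 0.40 with day 2 missing. Probe 16465_1 instead read -0.04, -0.11 and -0.19 on days 1, 3 and 4, and probe 27052_1 read -0.14, 0.06, 0.24 and -0.31. Probe 24694_1 had no value.

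ITGA4, the α chain that binds VCAM1, had no value on day 2, and its averages were -0.51, 0.08 and 0.12 on days 1, 3 and 4. The day 1 average was set by probe 30697_1, at -1.98, while the 3 other probes with values lay between -0.16 and 0.09 that day. On days 3 and 4 probe 30697_1 read 0.15 and 0.32. The mean of ITGA4 was -0.11 ± 0.35 (SD, 3 arrays; 95% interval -0.53 to 0.32; limma adjusted p = 0.823). Without probe averaging the means of 30482_1, 32668_1 and 35040_1 were 0.10, -0.02 and 0.01. ITGB1, the β chain shared by many integrins, had 1 probe with -0.01 on day 3 and 0.18 on day 4 and was not tested on the mean over the 4 days.

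CD44, the receptor for hyaluronan, had averages of 0.38, 0.37, 0.34 and 0.41 on days 1 to 4, the narrowest range of any member. The mean was 0.37 ± 0.025 (SD, 4 arrays), or 1.30-fold higher, with a 95% interval of 0.12 to 0.63 and a limma adjusted p of 0.249. That even level is an average of probes that differed. Probe 16140_1 read 1.07, 0.78, 0.70 and 0.58, the highest of the CD44 probes on every array, with a mean of 0.78 ± 0.21 and a limma adjusted p of 0.0725 over 11669 probes. Probes 28684_1, 24821_1 and 19271_1 were above 0 on all arrays, with means of 0.51, 0.45 and 0.31. Probes 25024_1 and 31594_1 were below 0 on days 1 and 2 (-0.39 and -0.11, and -0.07 and -0.25) and above 0 on days 3 and 4 (0.33 and 0.37, and 0.51 and 0.32). In the average these values opposed those of 16140_1, which was highest on day 1. CD44 is spliced into many forms, and no source used here says which exons the probes cover.

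PECAM1, an immunoglobulin-superfamily molecule that also binds CD38, rests on probe 16837_1, because 24718_1 had no value. It read 0.84, 0.39, 0.58 and 0.27 on days 1 to 4, above 0 on every array. The mean was 0.52 ± 0.25 (SD, 4 arrays), or 1.43-fold higher, with a 95% interval of 0.20 to 0.83 and a limma adjusted p of 0.219. PECAM1 also marks endothelium and platelets. Among 7 measured endothelial markers the means of 6 were below 0 (median -0.235), while 56.0% of all features had a mean below 0. The 2 measured platelet markers were at -0.22 ± 0.33 (PF4) and -0.21 ± 0.55 (PPBP). With days 3 and 4 alone 5 of 7 endothelial markers were below 0 (median -0.06), against 48.4% of all features. The 2 platelet markers were then above 0 (median 0.099). Ratios carry no level, so whether these markers were present at all was not tested.

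LGALS1, which encodes the glycan-binding lectin galectin 1, had averages of 0.68, 0.40, 0.57 and 0.60 on days 1 to 4. All were above 0, and the mean of 0.56 ± 0.12 (SD, 4 arrays) was the highest of the members, 1.48-fold higher in induced cells (95% interval 0.30 to 0.83; limma adjusted p = 0.133). With days 3 and 4 alone it was called at 0.58 (limma adjusted p = 0.0264), and with array weights, which down-weight days 1 and 2, at 0.57 (limma adjusted p = 0.0336). Its 2 probes kept the same sign. Probe 16861_1 read 0.50, 0.52, 0.57 and 0.96, and probe 17633_1 read 0.86, 0.28 and 0.23 on days 1, 2 and 4. They were highest on different days, so the order of days in the average belongs to neither probe.

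Taking probes rather than genes, 10 of the 18 member probes with all 4 values were above 0 on every array, against 13.1% of 9242 such probes, and 2 were below 0 on every array, against 13.2%. The 10 were the 4 complete ITGA6 probes, 4 of the 6 CD44 probes, and those of PECAM1 and LGALS1. The 2 were ICAM1 27211_1 and ITGAL 29807_1. None of the 26 member probes with at least 3 values had a limma adjusted p under 0.05 (0 of 26, against 0.471% of all probes tested). At an unadjusted p under 0.05 there were 13, against 1589 of all 11669 probes tested. Of the 13 member probes 11 were higher, against 7.09% of all probes tested, and 2 were lower, against 6.53%. Probes of the same gene share a target and are not replicates of a condition.

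Setting the NF-κB-inducible ligands against the receptors, the integrin chains with at least 3 values (ITGA4, ITGA6, ITGB2, ITGAL) and CD44 had a joint average of -0.02, 0.18, 0.20 and 0.24 on days 1 to 4. ITGA4 is missing from the day 2 average. On day 1 the ITGA4 value of -0.51, set by probe 30697_1 at -1.98, lowers the average and narrows the gaps of ICAM1 and VCAM1 to it. ICAM1 lay below this average on each array, by -0.78, -0.67, -0.46 and -0.44, a mean difference of -0.59 ± 0.17 (SD, 4 arrays). ICAM1 also lay below each of the 5 genes singly wherever both were measured, with mean differences from -0.31 against ITGA4 (3 arrays) to -0.90 against ITGA6. With probe 27211_1 alone, an alternative chosen after the data were seen, the differences were -0.78, -0.67, -0.87 and -0.91, so the gap did not narrow over the days. VCAM1 differed from the average by -0.14, -0.20, -0.75 and -0.86, a mean of -0.49 ± 0.37. VCAM1 was above ITGB2 on days 1 and 2, above ITGA4 on day 1 and above ITGAL on day 2, and below all 5 on days 3 and 4. VCAM1 was thus furthest below the receptors on days 3 and 4, and the ICAM1 gene average on day 1. Whether their time courses differ was not tested. No p is given for these differences because the genes were chosen with earlier results known.

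**Figure D3:**
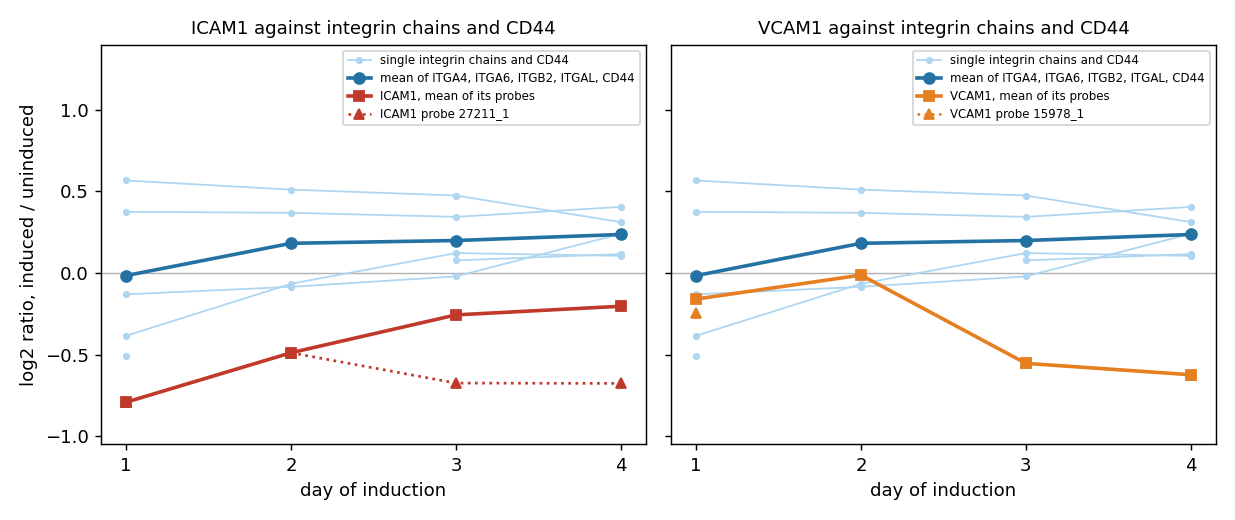
Log2 ratio (induced over uninduced) against day for ICAM1 (left) and VCAM1 (right), each with its probe average as squares and its best-covered probe as triangles (hidden under the squares where equal). The dark blue line is the mean of ITGA4, ITGA6, ITGB2, ITGAL and CD44, and light blue lines are these genes. ICAM1 minus the mean is -0.78 to -0.44 over the days, and VCAM1 minus the mean is -0.14, -0.20, -0.75 and -0.86 on days 1 to 4.

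No member had a slope over the days that passed: 0 of 8 members did, as did 0 of 6427 features (0.0%), and 0 of the 8 had an unadjusted slope p under 0.05, while 963 features did. The steepest average slopes were 0.20 ± 0.04 log2 per day (SE) for ICAM1, which rests on the change of probes above, and -0.19 ± 0.09 for VCAM1, where the probes change as well (limma adjusted p = 0.346 and 0.381). ITGB2 had 0.17 ± 0.05 and PECAM1 -0.15 ± 0.08 (limma adjusted p = 0.394 and 0.447). The SE printed for these slopes is the ordinary one, whereas the limma p-values rest on the moderated variance. ICAM1 probe 27211_1 alone had a slope of 0.02.

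The NF-κB-responsive genes RELB, NFKB2 and NFKBIE, set beside ICAM1 and VCAM1, had means of -0.73 ± 0.21, -0.88 ± 0.43 and -0.27 ± 0.53 (SD, 4 arrays; limma adjusted p = 0.094, 0.125 and 0.609), and TNFAIP3 -1.47 ± 0.28. Their mean log2 ratios, NFKBIE apart, were thus further below 0 than those of ICAM1 and VCAM1. BIRC3 had no named probe here.

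The remaining adhesion genes were described from 6 lists. Of 16 other integrin chains, the means of 8 were below 0 and of 8 above; the median was -0.02, and 0.055 with arrays scaled to equal spread. ITGB7, the β chain that pairs with α4 or αE, was the one called, at 1.48 ± 0.17 (limma adjusted p = 0.00898), against 0.337% of all features. No chain was called with the day 2 or the day 3 array left out, with days 1 and 2 alone, or with the best-covered probe of each gene. With days 3 and 4 alone 2 of 16 chains were called, against 6.58% of 8650 features. Next was ITGB5, a partner of αV, at 0.49 ± 0.33 (limma adjusted p = 0.276), and the lowest were ITGAE at -0.30 ± 0.29 and ITGAV at -0.26 ± 0.50. Among 20 other adhesion receptors 11 were below 0 and 9 above (10 and 10 with equal spread), and none passed in limma. At an unadjusted p under 0.05, 2 were higher and 2 lower, against 6.47% and 6.0% of all features. The highest were the plasma cell proteoglycan SDC1 (syndecan 1) at 0.59 ± 0.44 and ICAM2 at 0.41 ± 0.41, and the lowest CD36 at -0.69 ± 0.94 and MADCAM1 at -0.36 ± 0.08 (limma adjusted p = 0.269, 0.392, 0.436 and 0.275). CD36 read -1.14, -1.79, 0.02 and 0.16 on days 1 to 4, so days 1 and 2 set its mean. MADCAM1 is the mucosal ligand of α4β7. SELE, an endothelial selectin that NF-κB induces in endothelium, was at 0.11 ± 0.31, and ICAM3, a relative of ICAM1, at 0.20 ± 0.18. SELE and ICAM3 were picked for mention after their values were seen.

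Tetraspanins, membrane proteins that organise integrins into microdomains, had means above 0 for 9 of 9, with a median of 0.25, while 56.0% of all features had a mean below 0. The highest were CD63 at 0.74 ± 0.28 and CD53 at 0.47 ± 0.11, and the lowest CD82 at 0.12 ± 0.59 and TSPAN7 at 0.13 ± 0.17 (limma adjusted p = 0.112, 0.196, 0.846 and 0.665). None was called over all features, and 3 were higher at an unadjusted p under 0.05, against 6.47% of all features. All 9 stayed above 0 with arrays median-centred or scaled to the same spread, 8 of 9 did with array weights, with the probe with the fewest gaps, with days 1 and 2 alone or without the day 2 array, and 8 of 10 did with days 3 and 4 alone. Intracellular linkers of integrins and of CD44 were below 0 in 17 of 21 cases (median -0.095), against 56.0% of all features. They were below 0 in 15 of 21 cases with arrays centred, against 50.9% of all features. Without the day 3 array it was 10 of 17, near the 57.9% of all features. The lowest were TNS3 (tensin 3) at -0.57 ± 0.29 and ZYX (zyxin) at -0.30 ± 0.13, and the highest PARVG at 0.14 ± 0.47 and the Src-family kinase LYN at 0.11 ± 0.07 (limma adjusted p = 0.208, 0.356, 0.775 and 0.68). Matrix ligands were below 0 in 11 of 15 cases, and their median of -0.17 became 0.065 over 18 genes on days 3 and 4 alone. SPP1 (osteopontin), a ligand of integrins and CD44, was highest at 1.19 ± 0.83, with values from 0.51 on day 1 to 2.32 on day 3, followed by LAMC1 at 0.15 ± 0.11. CCN2 and VWF were lowest at -0.49 ± 0.43 and -0.24 ± 0.54 (VWF on 3 arrays). None of these genes was called over the 4 arrays. With array weights 1 of 9 tetraspanins and 1 of 15 matrix ligands were called, against 144 of 7713 features. With days 3 and 4 alone 1 of 10 tetraspanins and 1 of 18 matrix ligands were, against 6.58% of 8650 features. SPP1, CCN2, VWF, TNS3, ZYX and CD82 rest on 1 probe each. LGALS3BP, the only gene of the galectin list with a probe, had a mean of -0.07 ± 0.03 (3 arrays).

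**Figure D4:**
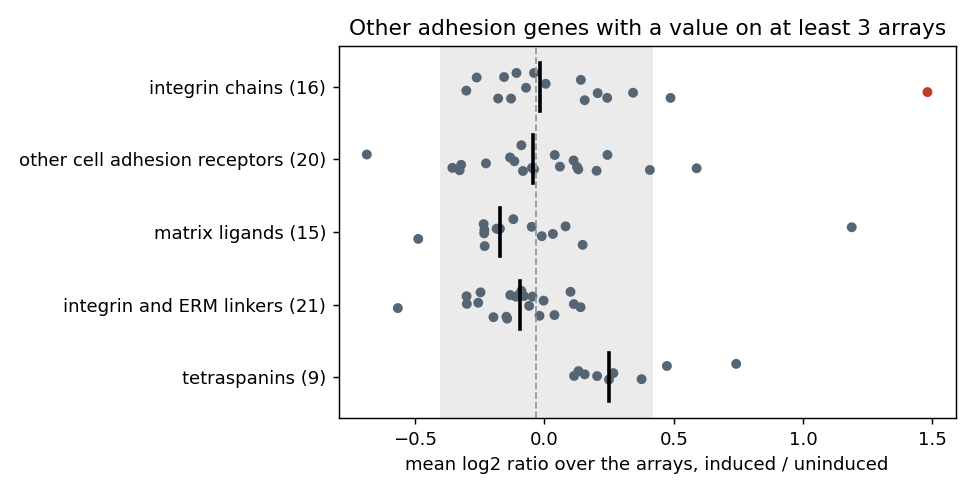
Mean log2 ratio over the arrays of single genes in 5 lists of adhesion genes, with the number of genes in brackets. Black bars are list medians, the grey band spans the 5th to 95th percentile of all features, the dashed line is their median, and red marks the gene with a limma adjusted p under 0.05 (ITGB7). In these values all 9 tetraspanins lie above 0 (8 of 9 under some alternatives) and the other lists straddle it.

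Plasma cell markers, which fit the labelled cell type, also had means mostly above 0. Over the 4 arrays 8 of 9 means were above 0 (median 0.50), while 56.0% of all features had a mean below 0. The list medians per array were 0.56, 0.70, 0.27 and 0.16 on days 1 to 4. With days 3 and 4 alone 6 of 9 means were above 0 and 3 below (median 0.25), against 48.4% of all features below 0. The highest were JCHAIN at 1.00 ± 0.50 and CD38, which PECAM1 binds, at 0.69 ± 0.09 (limma adjusted p = 0.123 and 0.0741). The daily JCHAIN values were 1.751, 0.726, 0.735 and 0.79, so day 1 raised its mean. The part of the plasma cell markers in the values of PECAM1, CD44, ITGA6 and LGALS1 was not tested. T cell markers had a median of 0.15 (5 genes), myeloid markers -0.09 (4 genes) and stromal markers 0.01 (4 genes).

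The genes nearest to each member were taken as those with the smallest root mean square difference of the log2 ratios over the 4 arrays, among 3768 other named genes. With 4 points many genes come close by accident, and the measure is a description. ICAM1 was nearest to GATA2 (0.09), ANKRD49 (0.10) and TTF2 (0.10), and VCAM1 to RHEB (0.04), PSIP1 (0.09) and KAT6B (0.09). ITGA6 was nearest to MYL6 (0.03), RAB5B (0.04) and ENTPD1 (0.07), CD44 to NAB2 (0.05), OS9 (0.07) and MAP3K4 (0.08), and PECAM1 to DPH1 (0.06), RHOC (0.09) and AUP1 (0.09). LGALS1 was nearest to COX14 (0.10), GLIPR1 (0.11) and RPL27 (0.11), ITGB2 to HOXD9 (0.02), CYRIA (0.03) and TUSC1 (0.04), and ITGAL to NCOA1 (0.04), CCDC186 (0.04) and KAT6A (0.05). None of the 24 is in the adhesion lists. These lists held only 16, 20, 15, 21, 9 and 1 genes with at least 3 values, few beside 3768. The absence therefore says nothing about whether members go with other adhesion genes.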

How the data were processed

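RNA of induced and uninduced EJM cells was compared on 4 spotted arrays with a pair of dyes, 1 array per day. Per the labels' protocols, each dye took 50 µg of total RNA. The authors deposited log2 ratios per probe, base and direction inferred as given above. No source used here states the background correction, normalization, spot filter or reason for missing values, and no intensities were used, so signal strength could not be checked. Of 15246 probes, 10169 had 1 symbol, 4 several and 5073 none. Symbols were updated through Entrez identifiers, of which 10128 matched the RefSeq table. Probes of a symbol were averaged per array, giving 9681 features. The mean over arrays was tested against 0 for features with at least 3 values, and the slope on day for those with all 4, with limma 3.58.1 in R 4.3.3 (lmFit, eBayes, two-sided, Benjamini-Hochberg over all features, threshold 0.05). Both fits were tested on simulated data with noise drawn independently for each array. The real arrays correlated unevenly, so that test cannot show how the p-values behave here. The arrays are different days, nothing says they are separate cultures, and p-values measure only the spread between them. If the control was 1 RNA preparation, its own spread is left out. Dye bias and effects of doxycycline itself remain in the mean. The number of arrays limits the precision. The members and gene lists were chosen with earlier results of these data known. Named genes were the members, the 2 highest and 2 lowest means per adhesion list, any gene called there, 5 NF-κB reference genes and the 3 nearest genes per member. SELE, ICAM3 and the markers JCHAIN, CD38, PF4 and PPBP were named outside this rule, after their values were seen.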

Additional observations from a re-analysis of the deposited data

Results flagged for a closer look

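Among 28 sets of 4 values examined (the 8 complete gene averages, the 18 complete member probes and the ICAM1 and VCAM1 differences), 1 had an array far from the other 3. LGALS1 probe 16861_1 read 0.961 on day 4, while its other values lay between 0.50 and 0.57, and the gap was 0.863 of the range. The other LGALS1 probe, 17633_1, read 0.23 on day 4. Chance alone marks about 1 in 20 such sets.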

How the results depend on the processing

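Over 26 features called in the mean of 4 arrays, the count became 144 with array weights, 569 with days 3 and 4 alone, 1 with days 1 and 2 alone, 42 with values required on all 4 arrays, 55 with each probe as a feature (added after seeing the data), and 3 to 5 when an array was left out. The slope count was 0 under each alternative run for it, which were the 3 probe choices, centring, equal spread, array weights and leaving out an array. ICAM1 minus the mean of the integrin chains and CD44 was -0.862 with the best-covered probe per gene, -0.843 with probes with all values and -0.808 with the ICAM1 probe with values on all arrays (also added after seeing the data). It was -0.313, -0.902, -0.38 and -0.809 against ITGA4, ITGA6, ITGB2 and CD44 alone. It lay between -0.634 and -0.523 with an array left out. The VCAM1 difference ran from -0.603 to -0.364 with an array left out, and was -0.807 on days 3 and 4 and -0.169 on days 1 and 2.

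Means of LGALS1, PECAM1, ITGA6, CD44, ICAM1 and VCAM1 kept their sign under each alternative that gave a value. Those of the 3 genes near 0 did not. ITGA4 turned to 0.038 (probe median), 0.099 (best-covered probe), 0.032 (array weights) and 0.097 (days 3 and 4). ITGB2 turned to 0.001 (equal spread), 0.05 (array weights), 0.114 (days 3 and 4) and 0.054 (without the day 1 array), with a range of -0.115 to 0.054 when an array was left out. ITGAL turned to -0.064 (probe median), -0.209 (best-covered probe), -0.028 (probes with all values), -0.108 (days 1 and 2) and -0.079 (without the day 4 array), with a range of -0.079 to 0.045. Slopes that turned were ITGAL at -0.156 (best-covered probe), CD44 at -0.068 (probe median), -0.155 (best-covered probe), -0.012 (centring) and -0.015 (without the day 4 array; range -0.015 to 0.018), and LGALS1 at 0.142 (both probe choices), 0.068 (equal spread) and 0.096 (without the day 1 array; range -0.059 to 0.096). The cause was not tested. Of 102 alternative means 3 newly passed, VCAM1 and LGALS1 with days 3 and 4 and LGALS1 with array weights. The means of ITGA4, which had no day 2 value, could not be had where 4 values were required or with days 1 and 2 alone. Nor could they be had with the day 1, 3 or 4 array left out. The VCAM1 difference could not be had from probes with all values.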
